A study of Mus musculus with 12 samples.

Results

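The genes described here encode proteins that take part in making, sensing or breaking down prostaglandin E2. Their RNA was measured in 4T1 cells, a metastatic line from a mouse mammary tumour. The genes are 8 of the 22880 features in the count table, matched from Ensembl identifiers to the symbols Ptgs1, Ptgs2, Ptges, Ptges2, Ptges3, Hpgd, Ptger4 and Pla2g4a. Of these, 7 had enough counts to be tested, among 11291 such genes, and Hpgd had no counts. RNA was sequenced from 4 groups of 3 libraries. The MYBup cells carried the plasmid pcDNA3-mMyb, which carries the coding sequence of the transcription factor c-Myb from mouse, and the labels call their lung metastatic activity low. The mock cells carried pcDNA3.1 and had normal activity. The lung3 cells had no plasmid, had been passaged 3 times through the lung in vivo and had high activity. The wt cells had no plasmid and no passaging, and their activity was normal. Whether the plasmid lines are pools or single clones is not stated, so an effect of Myb and a difference between 2 lines cannot be told apart. Nor do the labels tell whether each library had its own culture. The p-values therefore refer to the spread among libraries, and this may be technical.

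Prostaglandin E2 starts as arachidonic acid, which cytosolic phospholipase A2 (encoded by Pla2g4a) cuts from membrane lipids. The cyclooxygenases COX-1 (Ptgs1) and COX-2 (Ptgs2) turn it into prostaglandin H2, and prostaglandin E synthases (Ptges, Ptges2 and Ptges3) turn that into prostaglandin E2. The product leaves the cell, acts on receptors such as EP4 (Ptger4), and is inactivated inside cells by 15-hydroxyprostaglandin dehydrogenase (Hpgd). In breast tumours the pathway is known for its inducible enzymes, COX-2 and microsomal prostaglandin E synthase 1 (Ptges), and for the actions of prostaglandin E2 on tumour and immune cells.

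Total counts per library ran from 8912989 to 24745660. Levels are in CPM, the count of a gene scaled to the normalised total of its library. The MYBup libraries averaged 40.7 ± 1.94 CPM of Myb itself, against 5.49 ± 1.19 CPM in mock libraries (SD, n = 3 each), and lung3 libraries 2.71 ± 0.459 CPM, against 4.99 ± 0.742 CPM in wt. The libraries held epithelial markers in quantity: 10 genes, Krt8, Krt18, Cdh1 and Epcam among them, summed to between 2656 and 3480 CPM in every library. Lists of host cell markers were measured as well. The 10 leukocyte markers summed to 3.62 to 4.64 CPM in MYBup, against 3.92 to 6.77 CPM in mock libraries, and to 8.43 to 8.53 CPM in lung3 and 4.83 to 6.52 CPM in wt cells. Most of this was Cd68, and Adgre1 and Cd3e had no counts. The 8 platelet and mast cell markers summed to 1.85 to 3.26 CPM in MYBup, against 5.62 to 6.56 CPM in mock libraries, and to 5.55 to 7.20 CPM in lung3 and 2.27 to 3.55 CPM in wt cells, with the mast cell markers Cpa3, Mcpt4, Tpsb2 and Fcer1a at 0. Most of this was Ppbp in lung3 (4.37 to 6.35 CPM) and Gp1bb in mock libraries (3.40 to 4.56 CPM). Itga2b went the other way, with 0.800 to 1.55 CPM in MYBup and 0.332 to 0.654 CPM in mock libraries. The 6 fibroblast markers summed to 38.7 to 48.6 CPM in MYBup, against 36.9 to 49.0 CPM in mock libraries, and to 15.9 to 21.6 CPM in lung3, against 21.8 to 30.3 CPM in wt. Nearly all of this was Pdgfra, and Lum had no counts. Endothelial markers summed to at most 0.537 CPM and lung epithelial markers to at most 1.055 CPM, with Kdr, Cldn5, Sftpc and Sftpb at 0. The part of these cells in the results was not tested. In such bulk samples, fewer cells of a type and less RNA per cell cannot be told apart.

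Taken per kilobase of exon, the level of these genes spanned about 3 orders of magnitude, and the place of Ptgs2 and of Ptges in the order differed between groups. Values per length are CPM per kilobase of exon (RPKM). Ptges3 and Ptgs2 were among the most abundant transcripts of the cells: averaged over the 12 libraries, Ptges3 stood at 144 RPKM, above 97.5% of tested genes, and Ptgs2 at 111 RPKM, above 96.7%. In MYBup cells Ptges3 led with 147 ± 13.7 RPKM and Ptgs2 followed with 62.2 ± 7.31 RPKM, and in mock cells the values were 138 ± 20.1 and 96.8 ± 21.9 RPKM. In lung3 cells the means stood the other way, with Ptgs2 at 165 ± 30.6 and Ptges3 at 150 ± 6.23 RPKM, but the libraries of these 2 genes overlapped. In wt cells Ptges3 had 142 ± 4.87 and Ptgs2 119 ± 11.1 RPKM, without overlap.

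**Figure D1:**
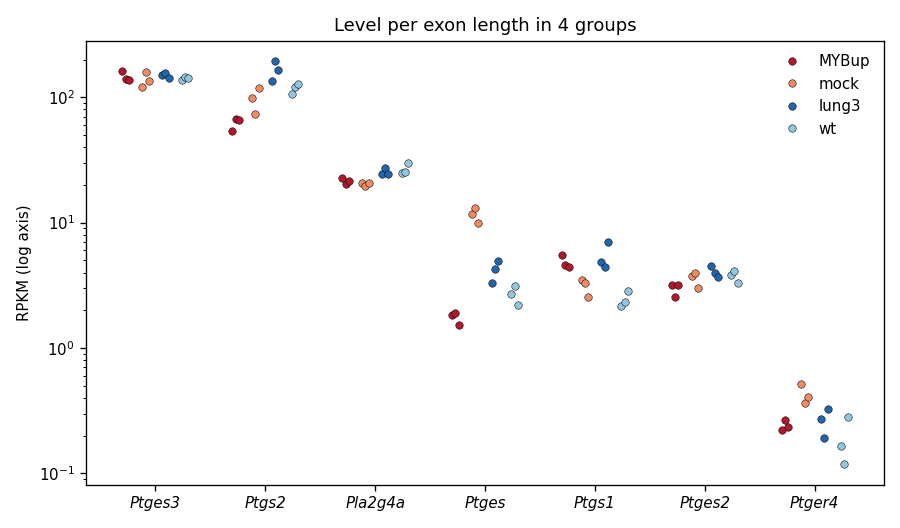
Each point is the RPKM of a gene in a library, on a log axis, coloured by group (MYBup, mock, lung3 and wt, 3 libraries each). Ptges3 and Ptgs2 lie highest and Ptger4 lowest in every group, and Ptges is the gene whose groups lie farthest apart, from 1.75 RPKM on average in MYBup to 11.6 RPKM in mock cells.

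Pla2g4a was next in every group, between 20.4 RPKM on average in mock and 26.8 RPKM in wt cells. Below it, the order in MYBup cells was Ptgs1 (4.83 RPKM), Ptges2 (2.97) and Ptges (1.75), each without overlap with the next. In mock cells Ptges came first of these at 11.6 RPKM, while Ptges2 (3.60) and Ptgs1 (3.12) overlapped. In lung3 cells Ptgs1 (5.44), Ptges (4.17) and Ptges2 (4.05) overlapped with their neighbours. In wt cells Ptges2 (3.75) was above Ptges (2.67), which overlapped with Ptgs1 (2.45). Ptger4 was last everywhere, at 0.188 to 0.430 RPKM on average, and 4.19% of tested genes lay below it.

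The comparison of MYBup with mock cells asks which genes follow the level of Myb. Of the 7 tested genes 3 fell and 1 rose, where 26.9% of all tested genes were called, 14.3% as higher and 12.6% as lower. Their median log2 fold change was -0.28, beside 0.00 over all tested genes. The values of MYBup and mock libraries did not overlap for 4 of the 7, and did not for 40.6% of all tested genes. The comparison of lung3 with wt cells asks what differs after selection in the lung. Here 2 of 7 rose and 0 fell, against 5.36% of all tested genes called, 2.91% as higher and 2.44% as lower, and the median was 0.47, beside 0.00 over all genes. Groups did not overlap for 3 of 7, and for 27.4% of all tested genes. The mock cells themselves differed from wt cells in 3 of the 7 (2 higher and 1 lower), where 35.9% of tested genes were called. The mock and wt libraries did not overlap for 3 of 7, and for 46.9% of all tested genes. MYBup cells differed from wt cells in 4 of the 7 (1 higher and 3 lower), where 38.2% of tested genes were called, 19.4% as higher and 18.7% as lower. These groups did not overlap for 5 of 7, and for 55.6% of all tested genes. Tests are edgeR's quasi-likelihood F test, with Benjamini-Hochberg adjustment over all tested genes and a threshold of 0.05 on adjusted p.

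**Figure D2:**
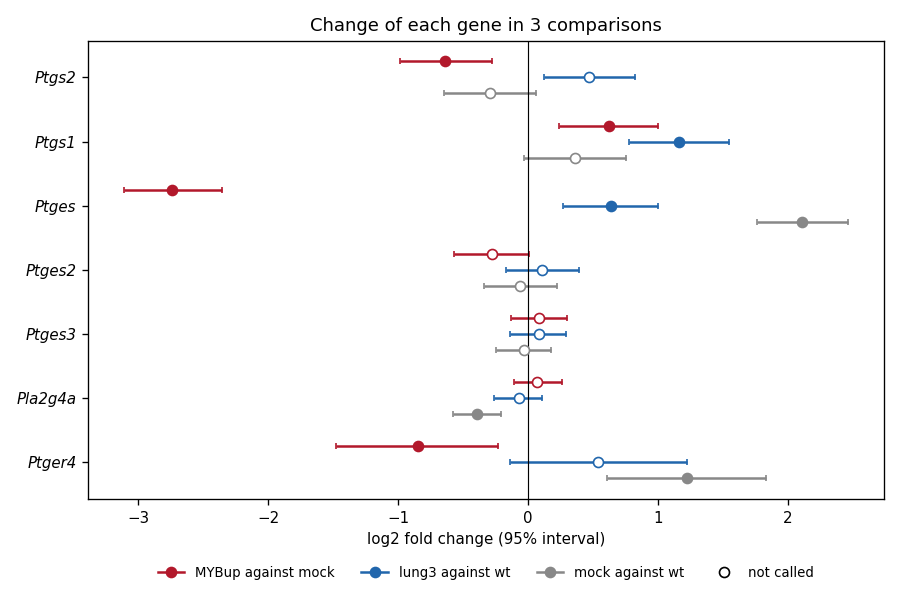
Log2 fold changes with 95% intervals from edgeR for the 7 tested genes in MYBup against mock, lung3 against wt and mock against wt, with filled points for called changes. Ptges has the largest changes of the 7, -2.74 in MYBup and 2.11 in mock cells, while Ptges2 and Ptges3 have no filled point.

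Pla2g4a (ENSMUSG00000056220, chromosome 1, 149829618 to 149961290, GRCm38), whose enzyme releases arachidonic acid, did not pass the test in either main comparison. It had 146, 129 and 137 CPM in MYBup replicates 1 to 3, against 133, 126 and 132 CPM in mock. The lung3 libraries had 156, 175 and 158 CPM, against 158, 163 and 192 CPM in wt. The groups of each pair overlapped. The log2 fold change was 0.07 in MYBup (95% interval -0.11 to 0.26, adjusted p = 0.553) and -0.07 in lung3 cells (-0.26 to 0.11, adjusted p = 0.687), so a change of 1.5-fold lay outside both intervals. Both plasmid lines were below wt, mock by -0.39 (adjusted p = 0.00316) and MYBup by -0.32 (adjusted p = 0.0105, and 0.0598 without wt replicate 3).

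Ptgs2 (ENSMUSG00000032487, chromosome 1, 150100031 to 150108227) lies 138740 bases from Pla2g4a, with 0 protein-coding genes between them. It fell in MYBup cells and stood highest in lung3 cells. The MYBup libraries had 246, 305 and 303 CPM, against 453, 339 and 539 CPM in mock. All MYBup values were below all mock values, and mock replicate 3 was the highest. The log2 fold change was -0.64 (SE 0.16, adjusted p = 0.0115), and it was -0.47 with an adjusted p of 0.0502 without mock replicate 3. Against wt, Ptgs2 was also lower in MYBup cells (log2 fold change -0.93, adjusted p = 0.000808, called under every alternative run), whereas mock cells had -0.29 (adjusted p = 0.178).

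The lung3 libraries had 615, 896 and 753 CPM of Ptgs2, against 488, 558 and 586 CPM in wt, without overlap. Its log2 change of 0.47 (SE 0.16) did not pass the test over all 12 libraries (adjusted p = 0.114). The labels state no pairing of libraries, and a block by replicate number was tried because of correlations in these same data, given under processing. With that block Ptgs2 was called, at a log2 fold change of 0.46 (adjusted p = 0.000516). As the block was chosen from the data, this call depends on a pairing that is not established. That fit called 1985 genes in all, where the unblocked one called 605. Without mock replicate 2 the unblocked adjusted p was 0.0432. The change of Ptgs2 in MYBup against mock differed from its change in lung3 against wt by -1.11 on the log2 scale (SE 0.23, adjusted p = 0.00517), where 19.9% of tested genes had a called difference, 10.4% as higher and 9.52% as lower. Such a difference was called for 3 of the 7 members, Ptgs2, Ptges and Ptger4, each of them as lower. That of Ptger4 (-1.39, adjusted p = 0.037) was lost without any of 8 single libraries (the 3 of MYBup, mock replicate 1, lung3 replicates 1 and 3, wt replicates 1 and 2) and reached an adjusted p of 0.106 without mock and lung3 replicates 3.

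The Ptgs2 transcript is low in GC, at 40.0%, with 5.88% of tested genes below it and a median of 49.7% over all. Libraries differed in how strongly level followed GC content: the slope was -0.25 log2 units per 10 percentage points of GC in lung3 replicate 2 and between -0.08 and 0.10 in the others. With GC offsets per library, added after the data were seen, Ptgs2 had log2 fold changes of -0.62 in MYBup (adjusted p = 0.00293) and 0.44 in lung3 cells (adjusted p = 0.0608). Both were about as large as without the offsets.

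Ptgs1 (ENSMUSG00000047250, chromosome 2, 36230426 to 36252272), which encodes the cyclooxygenase usually described as constitutive, rose in both comparisons. The MYBup libraries had 21.3, 17.7 and 17.3 CPM, against 13.7, 12.8 and 9.94 CPM in mock. The lung3 libraries had 18.9, 17.3 and 27.1 CPM, against 8.36, 9.004 and 11.1 CPM in wt. Neither pair of groups overlapped, and lung3 replicate 3 was the highest of all. The log2 fold change was 1.16 in lung3 (SE 0.18, adjusted p = 0.00259), called under every alternative run, and 0.62 in MYBup cells (SE 0.18, adjusted p = 0.0199). The MYBup call ended without MYBup replicate 1 (adjusted p = 0.0686) or mock replicate 3 (adjusted p = 0.0663). Against wt, MYBup cells had a log2 fold change of 0.98 (adjusted p = 0.000953). The difference between the 2 changes did not pass the test (-0.54, SE 0.25, adjusted p = 0.148). In lung3 cells the summed leukocyte and platelet markers were also above wt, mostly through Cd68 and Ppbp. In MYBup cells the platelet sum was below mock, mostly through Gp1bb, while Itga2b was higher. The part of these markers in the level of Ptgs1 was not tested. An exon of Ptgs1 shares 148 bases with the opposite-strand model Gm43621, whose reads cannot be told apart where strand was not used in counting; that setting is not known here.

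The balance of the 2 cyclooxygenase transcripts therefore differed between groups. Per length, Ptgs2 exceeded Ptgs1 9.81, 14.6 and 14.9 times in the MYBup libraries, against 28.1, 22.5 and 46.0 times in mock. In lung3 the ratio was 27.6, 43.9 and 23.6, against 49.5, 52.6 and 44.7 in wt. The MYBup ratios lay below all mock ratios and the lung3 ratios below all wt ratios. In lung3 this went with a called rise of Ptgs1 and in MYBup with a called rise of Ptgs1 and a called fall of Ptgs2. Between 3 and 3 libraries an exact permutation test cannot pass the threshold, so no p is given for the ratio.

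**Figure D3:**
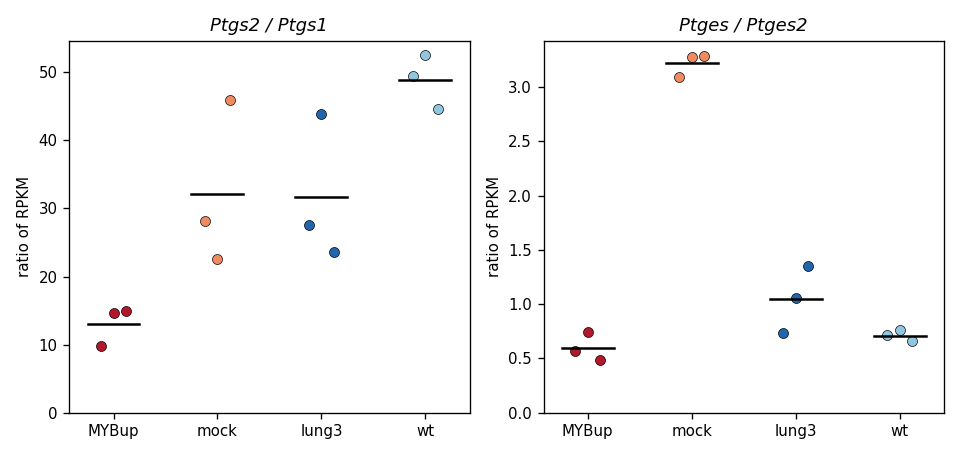
Ratio of RPKM values in each library (points) and its group mean (line), for Ptgs2 over Ptgs1 on the left and Ptges over Ptges2 on the right. The MYBup libraries lie between 9.81 and 14.9 on the left, below all others, and the mock libraries between 3.10 and 3.29 on the right, above all others.

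Ptges (ENSMUSG00000050737, chromosome 2, 30889471 to 30929863), the gene of the inducible microsomal synthase that works downstream of COX-2, had the largest change of the 7 genes. The MYBup libraries had 7.17, 7.47 and 5.97 CPM, against 46.0, 51.4 and 39.1 CPM in mock. No value of one group came near the other. Ptges fell 6.66-fold (log2 fold change -2.74, SE 0.18, adjusted p = 3.39e-07), and 1.26% of tested genes changed more in this comparison. The call held under every alternative run, with log2 fold changes from -2.83 to -2.63.

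Much of this distance lay in the mock cells. The wt libraries had 10.6, 12.3 and 8.58 CPM of Ptges, so mock cells stood 4.32-fold above wt (log2 fold change 2.11, SE 0.16, adjusted p = 2.13e-06), a change that 1.38% of tested genes exceeded. MYBup cells lay below wt by -0.62 on the log2 scale (SE 0.18, adjusted p = 0.0157), a call that ended without MYBup replicate 3 or wt replicate 2 (adjusted p up to 0.0757).

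In lung3 cells Ptges had 12.95, 16.6 and 19.6 CPM, all above the wt values. The log2 fold change was 0.64 (SE 0.17, adjusted p = 0.0449). This call was close to the threshold: it ended without any of 7 single libraries (MYBup replicates 2 and 3, mock replicate 1, lung3 replicates 2 and 3, wt replicates 1 and 3), where the adjusted p reached 0.175, and it held with the replicate block. The change in MYBup against mock and that in lung3 against wt differed by -3.37 (SE 0.24, adjusted p = 2.56e-06), most of it from the MYBup and mock pair.

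The promoters of Ptges, Ptgs2 and Ptgs1 are shown because these are the members that were called in at least 1 main comparison and whose enzymes make prostaglandin H2 or turn it into prostaglandin E2. Each is the 250 bases before the RefSeq start (GRCm38.p6), 5′ to 3′ on the gene's strand. Capitals mark the GC box GGGCGG, bound by factors of the Sp and Egr families, and the Myb core AACNG, either of them on any strand.
Ptges, chr2:30903298-30903547, minus strand: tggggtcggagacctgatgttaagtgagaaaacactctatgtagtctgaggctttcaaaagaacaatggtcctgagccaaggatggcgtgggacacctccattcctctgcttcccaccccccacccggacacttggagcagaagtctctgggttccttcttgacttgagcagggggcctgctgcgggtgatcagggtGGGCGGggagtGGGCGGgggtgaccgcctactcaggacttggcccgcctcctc
Ptgs2, chr1:150099781-150100030, plus strand: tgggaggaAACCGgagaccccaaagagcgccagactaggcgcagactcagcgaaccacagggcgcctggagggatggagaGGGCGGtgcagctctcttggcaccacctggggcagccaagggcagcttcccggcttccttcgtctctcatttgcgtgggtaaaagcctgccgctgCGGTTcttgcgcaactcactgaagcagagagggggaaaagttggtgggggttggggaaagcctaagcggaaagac
Ptgs1, chr2:36230176-36230425, plus strand: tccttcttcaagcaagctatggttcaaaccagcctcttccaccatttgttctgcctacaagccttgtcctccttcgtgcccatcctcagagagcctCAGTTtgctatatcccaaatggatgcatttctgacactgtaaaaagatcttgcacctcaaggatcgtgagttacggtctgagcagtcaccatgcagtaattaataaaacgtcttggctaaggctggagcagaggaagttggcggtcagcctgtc

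Ptges holds 2 GC boxes, at positions -53 and -42 from the start, and 0 Myb cores. Ptgs2 holds 1 GC box and 2 Myb cores, at -242 and -75, and Ptgs1 holds 1 Myb core, at -154, and 0 GC boxes. In 32851 RefSeq promoter windows of the same length, 32.7% hold a GC box and 74.2% a Myb core. The TATA box TATAAA was searched on both strands as well, is in 0 of these 3 windows, and occurs in 12.4% of all windows. The letters CCAAT are in 0 of the 3 and in 33.9% of all. The core of the cAMP response element, TGACG, is in 0 of the 3 and in 17.8% of all. A match is a run of letters, not a measured site. Bases outside these windows, those after the RefSeq start included, were not searched, so a motif missing here may lie elsewhere in the promoter.

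Ptges2 (ENSMUSG00000026820, chromosome 2, 32395896 to 32405772) and Ptges3 (ENSMUSG00000071072, chromosome 10, 128058954 to 128077272) encode the other prostaglandin E synthases, a membrane-associated form and a cytosolic protein also known as the Hsp90 co-chaperone p23. Ptges2 had 16.2, 12.9 and 16.0 CPM in MYBup, against 19.1, 20.2 and 15.3 CPM in mock. It had 22.6, 20.2 and 18.6 CPM in lung3, against 19.2, 20.9 and 16.8 CPM in wt. The groups of each pair overlapped, and the log2 fold changes were -0.28 (95% interval -0.57 to 0.01, adjusted p = 0.148) and 0.11 (-0.17 to 0.39, adjusted p = 0.699).

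Ptges3 stayed between 267 and 360 CPM in all libraries. Its log2 fold change was 0.08 in MYBup (95% interval -0.13 to 0.30, adjusted p = 0.566) and 0.08 in lung3 cells (-0.14 to 0.29, adjusted p = 0.716). A processed pseudogene of Ptges3 is annotated, and how the counting treated reads that fit several places is not given, so its level is uncertain. Ptges per length was 0.569, 0.747 and 0.480 of Ptges2 in MYBup, against 3.10, 3.28 and 3.29 in mock. It was 0.736, 1.06 and 1.35 of Ptges2 in lung3, against 0.710, 0.758 and 0.656 in wt, where the groups overlapped. Ptges made up 1.06% to 1.32% of the summed RPKM of the 3 synthases in MYBup and 6.75% to 8.61% in mock libraries. The share was 2.096% to 3.273% in lung3 and 1.475% to 2.045% in wt libraries. Most of that sum was Ptges3, whose level is uncertain as said above.

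**Figure D4:**
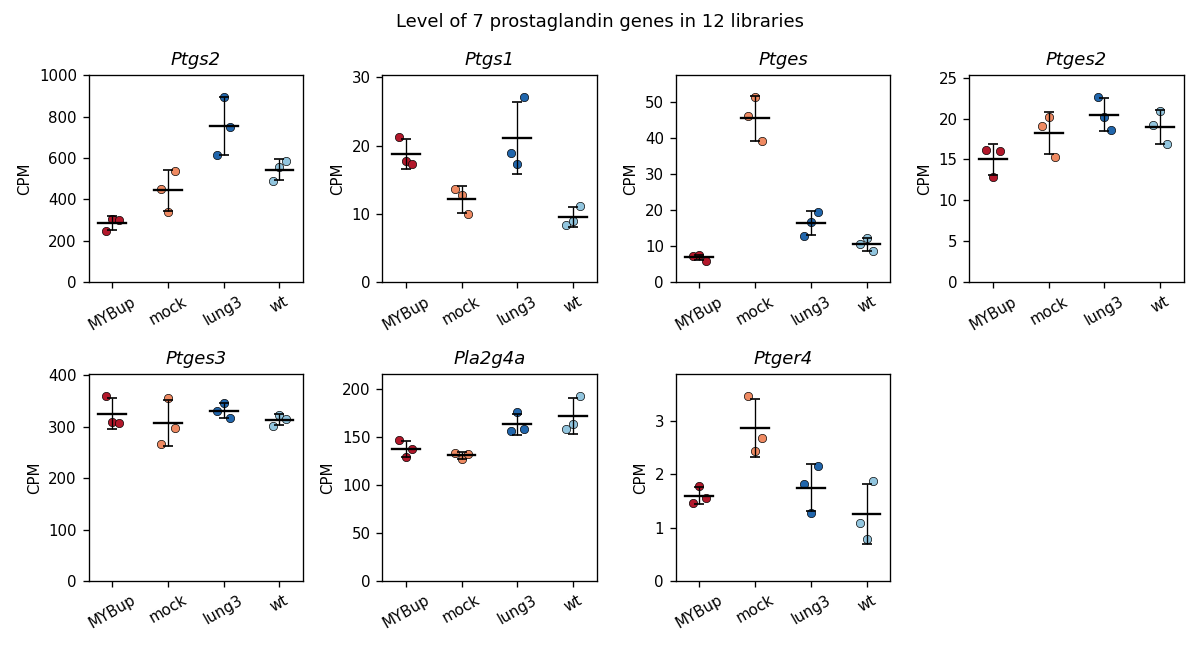
CPM of the 7 tested genes in each library (points) with the group mean and SD (bars), for MYBup, mock, lung3 and wt, each panel starting at 0. Ptges stands at 39.1 to 51.4 CPM in mock cells and at most 19.6 CPM in the other groups, and Ptgs1 is higher in MYBup and lung3 than in mock and wt cells.

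Ptger4 (ENSMUSG00000039942, chromosome 15, 5206661 to 5244187), the gene of the EP4 receptor, was near the limit of what the depth resolves, with 11 to 73 counts per library. The MYBup libraries had 1.47, 1.77 and 1.55 CPM, against 3.46, 2.42 and 2.68 CPM in mock. The lung3 libraries had 1.82, 1.27 and 2.15 CPM, against 1.09, 0.785 and 1.87 CPM in wt. MYBup lay below mock without overlap, and lung3 overlapped with wt. Its fall in MYBup cells was -0.85 on the log2 scale (SE 0.29, adjusted p = 0.0444). This call ended without any of 7 single libraries (the 3 of MYBup, mock replicates 1 and 3, lung3 replicate 1 and wt replicate 1), where the adjusted p reached 0.179. As with Ptges, the mock cells were above wt (log2 fold change 1.22, adjusted p = 0.0048), and MYBup against wt was not called (0.37, adjusted p = 0.374). In lung3 cells the log2 fold change was 0.54 (95% interval -0.14 to 1.22, adjusted p = 0.359). Exons of Ptger4 share 82 bases with those of Ttc33 and 1015 bases with the pseudogene Gm15937, both on the opposite strand, so its counts are uncertain.

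Hpgd (ENSMUSG00000031613, chromosome 8, 56294585 to 56321043), the gene of the enzyme that starts the breakdown of prostaglandin E2, had 0 counts in all 12 libraries. With a floor of 3 counts over 198906625 in total, this allows a level of up to 0.0151 CPM over all libraries, and of up to 0.124 to 0.346 CPM in a single one; these limits cover counting error only. In all, 7336 of the 22880 features had 0 counts everywhere. No difference between the groups could be detected at this depth.

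The 3′ UTRs of these genes differ in the pentamer ATTTA, the core of AU-rich elements known from short-lived inflammatory mRNAs. In the longest coding transcript of each gene in GENCODE M21, Ptgs2 holds 14 copies in 2448 bases, and 2.78% of 21167 genes hold as many. Pla2g4a holds 4 in 446 bases, 8.97 per kilobase, a density that 1.21% of genes with a UTR of at least 100 bases reach. Ptges2, Ptges3 and Hpgd also hold 4, Ptger4 holds 5, and Ptges and Ptgs1 hold 0.

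The genes whose log2 CPM followed each called member most closely over the 12 libraries were taken among 8813 or 8814 genes. For Ptges they were Ppp2r1b (r = 0.962), Spry4 (0.955), which encodes an inhibitor of growth factor signalling, and Aco1 (0.950). Spry4 averaged 11.0, 28.4, 17.4 and 15.0 CPM in MYBup, mock, lung3 and wt cells, the same order as Ptges. For Ptgs2 they were Hmmr (0.989), Agps (0.983) and Larp4 (0.981), for Ptgs1 Rhoj (0.950), Tor3a (0.927) and P4ha2 (0.907), and for Ptger4 Mid1ip1 (0.947), Cd276 and Cep63 (0.896). The libraries share 4 groups, depth and GC slopes, so these are descriptions. Exons of Ppp2r1b, Larp4, Mid1ip1, Cd276 and Cep63 overlap exons of genes on the opposite strand.

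Around these members, the other genes of arachidonic acid metabolism were read from 8 lists. The first holds phospholipases and other enzymes listed with arachidonic acid release, not all of which release this acid. It also holds the regulators Anxa1, an inhibitor of phospholipase A2, and Plaa, an activating protein. In MYBup against mock cells 7 of its 13 tested genes rose and 0 fell, where 14.3% of all tested genes were higher and 12.6% lower, and the median log2 fold change was 0.44 beside 0.00 over all genes. One of the 7 was Plaa (0.28, adjusted p = 0.00486). Faah, the gene of fatty acid amide hydrolase, had 11.8 ± 0.830 CPM in MYBup, against 5.52 ± 1.119 CPM in mock cells (SD, n = 3 each; log2 fold change 1.09, adjusted p = 0.000326). Pla2g7, the platelet-activating factor acetylhydrolase, rose by 0.84, the secreted phospholipase Pla2g12a by 0.66 and the lysosomal phospholipase Pla2g15 by 0.61. Faah and Pla2g12a were low in mock cells: against wt their log2 fold changes in MYBup were 0.07 (adjusted p = 0.744) and 0.04 (adjusted p = 0.814). Pla2g7 (0.87) and Pla2g15 (0.45) were called higher in MYBup against wt as well. Over the whole list, MYBup against wt had 6 higher and 2 lower, where 19.4% of all tested genes were higher and 18.7% lower. The median there was 0.08, and Anxa1 was among the lower (-0.36, adjusted p = 0.0156). Mock against wt had 0 higher and 3 lower, where 18% of all tested genes were higher and 17.9% lower. In lung3 cells 3 of these 13 rose and 1 fell, where 2.91% of all tested genes were higher and 2.44% lower, with a median of 0.01. Those that rose were the phospholipase gene Pla2g6 (0.60, adjusted p = 0.0114) and the regulators Anxa1 (0.38, adjusted p = 0.0491) and Plaa (0.28, adjusted p = 0.0181), and Dagla, a diacylglycerol lipase gene, fell (-0.58, adjusted p = 0.0442); these names were chosen after their values were seen. The 4 calls became 0 without wt replicate 2, 1 without wt replicate 1 or lung3 replicate 2, and 2 without MYBup replicate 2 or 3, mock replicate 1, or lung3 replicate 1 or 3. Pla2g12a was called in lung3 with the replicate block (0.34, adjusted p = 0.0107), where the unblocked fit gave 0.33 (adjusted p = 0.107).

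The reacylation list holds 12 tested genes for acyl-CoA synthetases and lysophospholipid acyltransferases. These enzymes put fatty acids back into lipids, and not all of them favour arachidonic acid. In MYBup cells 6 of the 12 fell and 0 rose, where 12.6% of all tested genes were lower and 14.3% higher, with a median of -0.32 beside 0.00 over all genes. The other 6 were not called, and Acsl1 (0.28) and Lpcat2 (0.19) had positive values. Mock against wt had 5 higher and 1 lower, with a median of 0.23, where 18% of all tested genes were higher and 17.9% lower. MYBup against wt had 1 higher and 5 lower, with a median of -0.20, where 19.4% were higher and 18.7% lower. Lpcat1, a lysophosphatidylcholine acyltransferase, had 50.4 ± 1.64 CPM in MYBup, against 111 ± 3.85 CPM in mock cells (log2 fold change -1.13, adjusted p = 4.39e-07). It was lower in MYBup than in wt as well (-0.47, adjusted p = 0.000366), and mock cells stood above wt (0.66, adjusted p = 2.95e-05). Lpcat3, which favours arachidonic acid, fell by 0.57, and the acyl-CoA synthetases Acsl4, which prefers arachidonic acid, and Acsl3 fell by 0.52 and 0.49. Against wt, Acsl3 had -0.62 in MYBup (adjusted p = 8.27e-05), whereas Acsl4 (-0.04) and Lpcat3 (-0.18) were not called, being high in mock cells. In lung3 cells 1 of 12, Lpcat4 (0.39, adjusted p = 0.0295), rose and 0 fell, where 5.36% of all genes were called. That call ended without any lung3 library or wt replicate 2 or 3. Lpcat1 was called in lung3 with the replicate block (-0.25, adjusted p = 0.0278), where the unblocked fit gave -0.25 (adjusted p = 0.0665). Exons of Lpcat3, Pla2g7 and Acsl3 overlap those of Emg1, 1700071M16Rik and Utp14b, which leaves their counts uncertain.

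**Figure D5:**
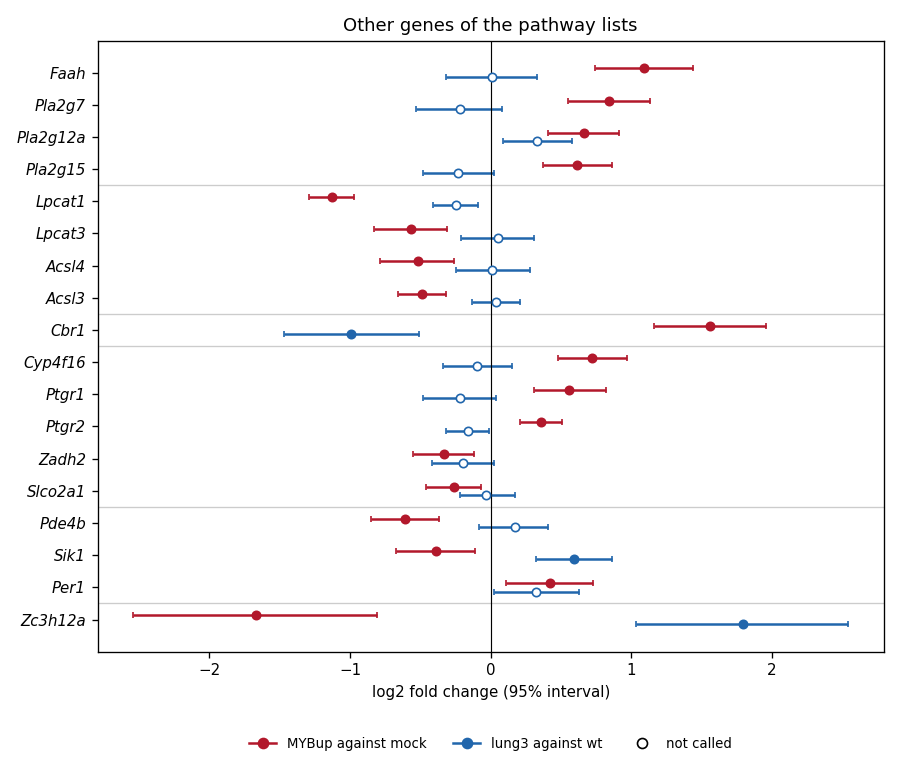
Log2 fold changes with 95% intervals from edgeR in MYBup against mock and lung3 against wt for the named genes of the pathway lists, separated by lines in the order release, reacylation, other synthases, transport and breakdown, cAMP-responsive genes and mRNA stability. The genes of each list were picked as its largest called changes. In MYBup cells the 4 picked from the release list lie to the right and the 4 from the reacylation list to the left. Cbr1, Sik1 and Zc3h12a have called changes of opposite sign in the 2 comparisons.

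Of 11 synthase genes for other prostanoids 3 were tested, Cbr1, Akr1b3 and Akr1b8. The last 2 encode aldo-keto reductases and had 71.8 to 124 CPM and 36.6 to 72.2 CPM over the 12 libraries, with no called change in either main comparison. The genes in this paragraph other than Cbr1 were singled out after their values were seen. Hpgds, for prostaglandin D2, had 0 counts in all libraries, and Ptgis (prostacyclin), Tbxas1 (thromboxane) and Ptgds had 7, 7 and 5 counts in all. Of the receptors, Ptger2, Ptger3, Ptgir and Ptgdr had 0 counts and Ptger1 between 0.116 and 1.01 CPM. The receptor list had 3 tested genes, Ptger1, Ptgfrn and Ppard, so Ptger1 was the only one of the receptors just named that was tested. Of these 3, edgeR called 0 in either main comparison, as did DESeq2 and limma voom, and 0 had an unadjusted p under 0.05. Over all tested genes edgeR called 26.9% in MYBup and 5.36% in lung3.

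Cbr1, a carbonyl reductase that can turn prostaglandin E2 into prostaglandin F2 alpha, was the called gene among those 3 synthase genes. Over all tested genes 26.9% were called in MYBup and 5.36% in lung3. In MYBup the count of called genes in this list was 2 in place of 1 without MYBup replicate 1, mock replicate 2 or mock replicate 3, and with DESeq2, no filter or GC offsets. Cbr1 had 17.9 ± 0.254 CPM in MYBup, against 6.13 ± 0.802 CPM in mock cells (log2 fold change 1.56, adjusted p = 6.51e-05). It had 2.66 ± 1.02 CPM in lung3, against 5.49 ± 1.07 CPM in wt cells (SD, n = 3 each; log2 fold change -0.99, adjusted p = 0.0208). The lung3 call ended without lung3 replicate 1, lung3 replicate 2 or wt replicate 1, where the adjusted p reached 0.0788.

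In the list of transport and breakdown genes, 3 of 9 rose and 2 fell in MYBup cells, where 14.3% of all tested genes were higher and 12.6% lower, with a median of 0.36 beside 0.00 over all genes. These 5 calls became 3 without MYBup replicate 2 or 3 or mock replicate 1. In lung3 cells 0 of 9 were called by edgeR, DESeq2 or limma voom, with 1 at an unadjusted p under 0.05. Over all tested genes edgeR called 5.36% in lung3. The reductases Ptgr1 and Ptgr2, which act on the products of Hpgd's enzyme, rose by 0.56 (adjusted p = 0.00323) and 0.36 (adjusted p = 0.00247), and both were higher than in wt too (0.66 and 0.45). Cyp4f16, a cytochrome P450 of a family that hydroxylates eicosanoids, rose by 0.72 (adjusted p = 0.000484). Zadh2, another prostaglandin reductase, fell by 0.33 (adjusted p = 0.0271), a call that ended without MYBup replicate 2 or 3 or mock replicate 1. Exons of Ptgr2 overlap 1896 bases of Gm47484 on the opposite strand. Slco2a1, the gene of the transporter that takes prostaglandins into cells and a name chosen after its values were seen, was abundant: it averaged 343 ± 14.2 CPM in MYBup libraries and 411 ± 51.02 CPM in those of mock, and 259 ± 19.6 CPM in lung3 and 264 ± 9.84 CPM in wt cells. Its fall in MYBup (log2 fold change -0.26, adjusted p = 0.0467) was not called without any 1 of 9 of the 12 libraries, where the adjusted p reached 0.208, and mock stood above wt (0.64, adjusted p = 0.000191).

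Genes that respond to cAMP, the second messenger of EP4, were called in 3 of 10 tested members in MYBup cells, 1 higher and 2 lower, a share near the 26.9% of all tested genes. This count was 1 without MYBup replicate 2. Pde4b, a cAMP phosphodiesterase, fell by 0.61 (adjusted p = 0.00153) and was not called in MYBup against wt (0.23, adjusted p = 0.121). Sik1, a kinase gene induced by cAMP, fell by 0.39 in MYBup (adjusted p = 0.0374) and rose by 0.59 in lung3 cells (adjusted p = 0.0144). Its MYBup call ended without MYBup replicate 1 or 2 or mock replicate 1 or 3, and its lung3 call without lung3 replicate 1 or wt replicate 2. The clock gene Per1 rose by 0.42 in MYBup (adjusted p = 0.0456), a call lost in 14 of 21 alternatives. The lung3 count was 1 of 10, where 5.36% of all tested genes were called. It was 2 with the replicate block or without lung3 replicate 3, and 0 without lung3 replicate 1 or wt replicate 2.

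Of 9 genes for proteins that set the stability of inflammatory mRNAs, edgeR called 1, Zc3h12a, whose product degrades such mRNAs, in each main comparison, where 26.9% of all tested genes were called in MYBup and 5.36% in lung3. The MYBup count was 3 without MYBup replicate 1 and 2 without mock replicate 2 or 3. The lung3 count was 3 with the replicate block, 2 without lung3 replicate 2 and 0 without wt replicate 2. Zc3h12a had 4.56 ± 0.503 CPM in MYBup, against 14.3 ± 7.97 CPM in mock cells (log2 fold change -1.67, adjusted p = 0.00775). The mock libraries had 20.4, 17.25 and 5.295 CPM, so mock replicate 3 lay close to MYBup replicate 1 (5.132 CPM). In lung3 Zc3h12a had 33.9 ± 9.54 CPM, against 9.77 ± 2.24 CPM in wt cells (SD, n = 3 each; log2 fold change 1.79, adjusted p = 0.0109). This lung3 call ended without wt replicate 2 (adjusted p = 0.0541). Of the lipoxygenase and leukotriene list 2 of 18 genes were tested and edgeR, DESeq2 and limma voom called 0 in either comparison, with 0 at an unadjusted p under 0.05, and Alox5, for the enzyme that starts leukotriene synthesis, had 0 counts.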

How the data were processed

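The deposited values are raw read counts per gene in 12 libraries; the tools STAR and edgeR and the build GRCm38 come from the submitters' processing notes. Which program counted the reads, with which annotation and whether by strand, is not given in the sources used here. Values of over 4 digits (2708 of them) are rounded to 4 significant digits. CPM used TMM factors, and RPKM divides it by the union of GENCODE M21 exons. R 4.3.3 with edgeR 4.0.16 fitted all 12 libraries with a term per group after filterByExpr, as tested on simulated data. SE is the absolute log2 fold change over the square root of F. DESeq2 1.42.0, limma voom 3.58.1 and other settings were alternatives. Figures used Python 3.11.15 with matplotlib 3.10.9. Promoter sequences are RefSeq's.

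Deviations from group means correlated at 0.329, 0.294 and 0.309 between lung3 and wt libraries of the same number, and at -0.191, -0.496 and 0.382 between MYBup and mock. The replicate block was therefore read as a possible pairing of lung3 with wt only. Between MYBup and mock, unlike numbers reached 0.636, so correlations of this size do not establish a pairing. The labels state no pairing.

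The members, lists and tests were chosen with earlier results of these data known. Named were all members, up to 4 called genes of each list by size of change, and the 3 genes with the highest Pearson r to each called member. Replicates differed by more than sampling noise.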

Additional observations from a re-analysis of the deposited data

How the results depend on the processing

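Of 294 values of the 7 members in the 2 main comparisons under alternatives, 266 kept direction and side of the threshold and 0 turned direction past it. With the replicate block the genes called numbered 1479 in MYBup against mock (3038 without) and 1985 in lung3 against wt (605 without); with GC offsets as well they numbered 1485 and 1801. DESeq2 called 919 in lung3 against wt, and leaving out single libraries gave 237 to 853. Ptger4 in MYBup was not called with DESeq2 (log2 fold change -0.85), the block (-0.84), the block with GC offsets (-0.82) or without mock and lung3 replicates 3 together (-0.91), and had -0.95 to -0.68 without single libraries. Ptges in lung3 was not called with limma voom (0.63), in the fit on 6 libraries (0.64) or without both replicates 3 (0.48), and had 0.48 to 0.79 without single libraries. Ptgs2 in lung3 was called with the block (0.46) and the block with GC offsets (0.43), and had 0.33 to 0.60 without single libraries. Ptgs2 in MYBup was not called without both replicates 3 (-0.48) and had -0.80 to -0.47 without single libraries, and Ptgs1 in MYBup had 0.50 to 0.72. The causes were not tested, apart from fewer libraries. Members called in MYBup fell to 1, Ptges, without mock replicate 3. The block changed no other member's call in these comparisons. Low counts limit Ptger4.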
